A study of Mus musculus with 24 samples.

Results

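The genes studied here code for J-domain proteins of the DNAJA, DNAJB and DNAJC families, also called HSP40 co-chaperones. They were taken as every gene whose single symbol in the array's probe annotation is Dnaja, Dnajb or Dnajc followed by a number, which gave 39 of 22180 measured genes. Another 4 genes of this naming, Dnaja1, Dnajb8, Dnajc17 and Dnajc19, lay only on array features shared with other genes and were not analysed here.

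A J-domain protein binds an unfolded or assembling client protein, hands it to an HSP70 chaperone and stimulates the ATPase of HSP70 through a conserved histidine-proline-aspartate motif, so that HSP70 closes on the client. Many class A and class B proteins serve HSP70 broadly in the cytosol, though Dnaja3 works in the mitochondrion and Dnajb9 and Dnajb11 in the endoplasmic reticulum. Most class C proteins work at 1 place, such as the endoplasmic reticulum, the mitochondrion, the ribosome, the spliceosome or the clathrin coat. Heart muscle cells use this system to keep sarcomere proteins folded under mechanical load, and the heat shock factor HSF1 drives several of its genes.

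All hearts came from male mice of 8 weeks with the genotype Clock delta 19/delta 19, a mutation of the circadian clock gene Clock whose protein is impaired in activating transcription. All cells of the animal carry it, and without wild-type hearts in these data no value below tells what the mutation does. Mice lived in 12 h of light and 12 h of darkness, and hearts were collected every 4 h, 4 per time point. Zeitgeber time (ZT) is the number of hours since the lights went on, so that ZT03, ZT07 and ZT11 are light-phase and ZT15, ZT19 and ZT23 dark-phase collections. The tissue is labelled myocardium, total RNA was hybridised to 1-colour Affymetrix arrays, and the question addressed is which transcripts vary over the day in these hearts.

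Each deposited value is a difference, on a log scale taken as log2 (a natural log would make every difference 1.44 times larger in log2), from that feature's own median over the 24 arrays, so it holds no level and genes cannot be ranked by abundance. The number spacing of the file places 1.94% of features in an upper class of signal before centring. Of 7 cardiomyocyte markers 6 lay in that class, against 1 of 5 fibroblast, 2 of 4 endothelial, 0 of 4 macrophage, 0 of 4 smooth muscle, 0 of 4 adipocyte and 1 of 4 skeletal muscle markers. Among the J-domain genes Dnaja2 alone lay in it. In bulk tissue, fewer cells of a type and less RNA per cell cannot be told apart. ZT11 replicate 1 held the extreme value of 10 of the 39 genes (25.6%), the lowest for 9 of them, where it did so for 16.2% of all genes. In each other heart the count was between 1 and 6.

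None of the 39 J-domain genes passed any of 4 tests over the day after Benjamini-Hochberg adjustment over all genes, at a threshold of 0.05 with limma. In the test of any difference among the 6 time points, 0 of 39 passed (background 1.48% of all genes), and the smallest adjusted p was 0.0863, for Dnajb4. Over a 24 h cosine 0 of 39 passed (background 0.0631%), with a smallest adjusted p of 0.191, for Dnajb5. In the dark phase minus the light phase 0 of 39 passed (background 0.379%), and the smallest adjusted p was 0.0904, again for Dnajb5. For ZT15 minus ZT03 the count was also 0 of 39 (background 1.08%, 0.198% higher and 0.879% lower), with a smallest adjusted p of 0.133 for Dnajb5.

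At an unadjusted p under 0.05, which is no call, limma left 8 of 39 genes (20.5%) in the test over time points, against a background of 13.4%. The dark-minus-light contrast left 8 of 39 (20.5%), against 10.5%. Of these 5 had higher values in the dark phase, Dnajb5, Dnajb11, Dnajc6, Dnajc9 and Dnajc11 (background 4.23%), and 3 lower ones, Dnajc4, Dnajc10 and Dnajc16 (background 6.3%). The 24 h cosine left 5 of 39 (12.8%, background 10.8%) and ZT15 minus ZT03 left 6 of 39 (15.4%, background 13%). Those were Dnajb5, Dnajc5 and Dnajc15 with higher values at ZT15 (background 5.05%) and Dnajc10, Dnajc13 and Dnajc28 with lower ones (background 7.96%). The median absolute dark-minus-light difference was 0.055 over the J-domain genes and 0.026 over all genes. Their median SD within time points was also larger, 0.11 against 0.087. How far the larger spread between hearts goes with the larger differences was not tested.

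**Figure D1:**
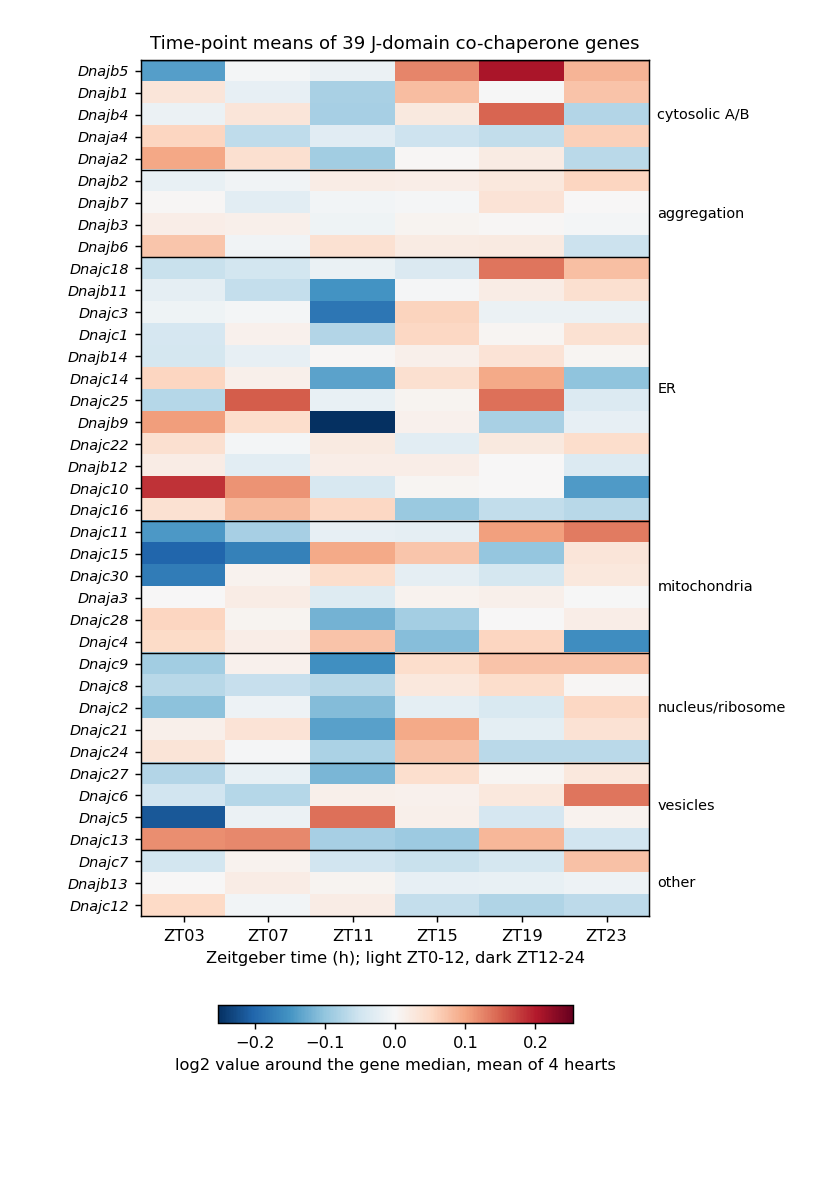
Mean log2 value around the gene median over 4 hearts (colour) for each of the 39 J-domain genes (rows, grouped by role) at 6 zeitgeber times (columns). The warmest cell of the cytosolic group is Dnajb5 at ZT19 (0.21), and the coldest cell of all is Dnajb9 at ZT11 (-0.25).

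Dnajb5 belongs to the cytosolic class B proteins and is known as a partner of thioredoxin in the redox control of class II histone deacetylases in heart muscle. The 250 bases before the most upstream of its RefSeq starts are shown because Dnajb5 had the smallest p of the family in 3 of the 4 tests. They lie on the plus strand of GRCm38.p6 at chr4:42949617-42949866, run 5′ to 3′ and hold none of the motifs searched, which are heat shock elements, the E-box and the endoplasmic reticulum stress element described further on.
Dnajb5: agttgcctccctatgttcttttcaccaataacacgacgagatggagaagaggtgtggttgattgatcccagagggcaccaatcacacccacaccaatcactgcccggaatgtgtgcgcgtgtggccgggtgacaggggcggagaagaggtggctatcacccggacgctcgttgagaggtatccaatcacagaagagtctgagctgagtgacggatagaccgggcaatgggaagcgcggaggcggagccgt

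Dnajb5 had log2 values around its median of -0.21, -0.11, -0.16 and -0.082 at ZT03, -0.039, -0.043, -0.059 and 0.12 at ZT07 and -0.082, -0.044, 0.23 and -0.17 at ZT11. Its dark-phase values were 0.30, 0.0006, -0.0028 and 0.20 at ZT15, -0.0006, 0.23, 0.21 and 0.39 at ZT19 and 0.12, 0.0040, 0.13 and 0.086 at ZT23. All 4 hearts at ZT15 lay above all 4 at ZT03, and 12 of 12 dark-phase hearts lay above the light-phase median, although the light-phase hearts at 0.12 (ZT07) and 0.23 (ZT11) lay within the dark-phase range. Its mean was 0.14 ± 0.13 in the dark phase and -0.053 ± 0.12 in the light phase (SD, n = 12 each). The dark-minus-light difference was 0.19 ± 0.048 (SE), a fold of 1.14 with a 95% interval of 0.092 to 0.29 on the log2 scale. The adjusted p with limma was 0.0904 for this difference. The fitted 24 h amplitude, the distance from mean to peak, was 0.14 ± 0.035 (SE), the largest of the 39, with a peak at ZT17.7 (adjusted p with limma 0.191). ZT15 minus ZT03 was 0.26 ± 0.083 (SE). The dark-minus-light difference passed when ZT11 replicate 3, the light-phase heart at 0.23, was left out (0.219, adjusted p with limma 0.0266) and when ZT19 replicate 1 was (0.214, adjusted p 0.0434). It did not pass when any one of the other 22 hearts was.

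Dnajb4, a class B protein of the cytosol, had log2 values of 0.0072, -0.090, 0.075 and -0.049 at ZT03, -0.018, -0.0004, 0.0053 and 0.14 at ZT07 and -0.15, 0.0004, -0.14 and -0.052 at ZT11. Dark-phase hearts had 0.075, -0.0062, 0.094 and -0.063 at ZT15, 0.14, 0.047, 0.19 and 0.22 at ZT19 and -0.15, -0.044, -0.12 and 0.013 at ZT23. The mean was highest at ZT19, although ZT19 replicate 2 lay below single hearts of ZT03, ZT07 and ZT15. It was 0.15 ± 0.076 at ZT19 and -0.075 ± 0.074 at ZT23 (SD, n = 4 each), and these 2 time points did not overlap. Both of these time points lie in the dark phase. The dark-minus-light difference was 0.055 ± 0.029 (SE) and the 24 h amplitude 0.048. Its adjusted p of 0.0863 in limma's test over time points was the smallest of the family.

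Dnaja2, a class A protein that refolds clients with HSP70, averaged 0.098 ± 0.033 at ZT03, 0.040 ± 0.051 at ZT07 and -0.087 ± 0.044 at ZT11 (SD, n = 4 each). In darkness its means were 0.0030 ± 0.088 at ZT15, 0.021 ± 0.10 at ZT19 and -0.067 ± 0.061 at ZT23. Its hearts were -0.13, -0.099, -0.087 and -0.029 at ZT11, against 0.12, 0.086, 0.13 and 0.057 at ZT03, without overlap, and the adjusted p over time points with limma was 0.18. Dnajb1, the main heat-inducible partner of HSP70 in the cytosol, had 0.10, 0.21, -0.25 and 0.26 at ZT15, against -0.082, -0.079, -0.051 and -0.12 at ZT11. The ZT15 hearts of Dnajb1 spread on both sides of the ZT11 hearts, which lay close together. Its dark-minus-light difference was 0.074 ± 0.062 (SE, 95% interval -0.054 to 0.20, adjusted p with limma 0.734). Dnaja4 had the smallest such difference of the cytosolic group (-0.0058 ± 0.040).

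**Figure D2:**
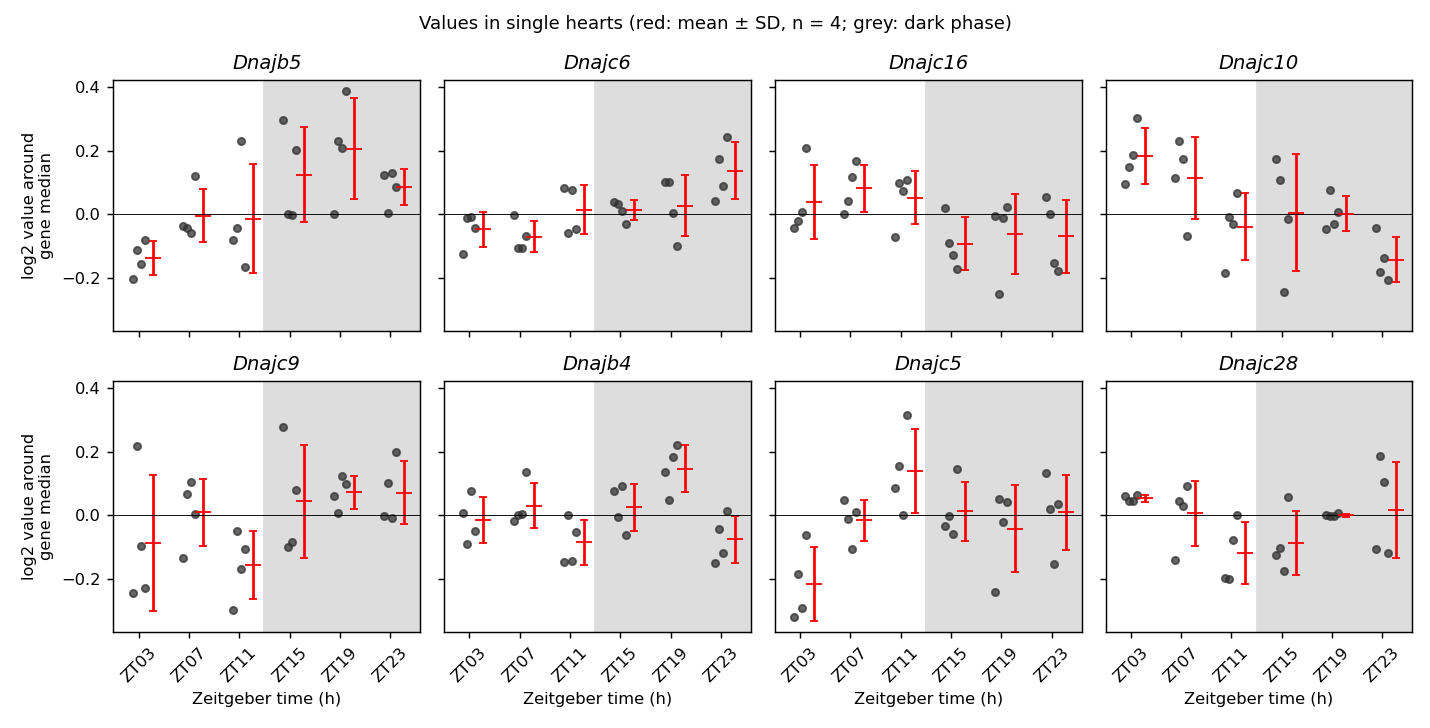
Log2 value around the gene median (vertical axis) in each of 24 hearts (dots) at 6 zeitgeber times (horizontal axis) for the 8 J-domain genes among the 5 smallest p-values of the tests over time points, 24 h or phase, with mean and SD of 4 hearts in red and the dark phase in grey. For Dnajb5 the ZT19 hearts reach from -0.0006 to 0.39 and those of ZT03 from -0.21 to -0.082.

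The group of class B proteins that hold back aggregation had 4 measured members, whose dark-minus-light differences lay between -0.0372 and 0.0352. Dnajb6, which suppresses aggregation and whose human form is mutated in a myopathy of the Z-disc, had a dark-minus-light difference of -0.037 ± 0.026 (SE). Dnajb2 was at 0.035 ± 0.046, Dnajb7 at 0.021 ± 0.013 and Dnajb3 at -0.0039 ± 0.012. Dnajb3 and Dnajb7 also had the smallest spread between hearts, with SDs within time points of 0.021 and 0.023. Since levels are unknown, a steady transcript and a feature near background cannot be told apart by this.

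The promoters of the family were searched for motifs in the 250 bases before each RefSeq start of GRCm38.p6, which were at hand for 32 of the 39 genes with 43 starts among them. Shares over all genes count promoters, so the family's promoters are counted beside its genes. A heat shock element is the site of HSF1, built of units GAA and TTC in alternation. Its 3-unit form, GAA, TTC and GAA in a row with 2 bases between neighbours, on either strand, was found in 1 of the 32 genes, Dnajb6, and 2 of the 43 promoters, against 0.466% of all 32851 promoters. These 2 promoters are overlapping windows of Dnajb6 that hold the same 1 site. That site is likewise counted in both windows for each 2-unit form below. The palindromic 2-unit form GAANNTTC, which the 3-unit form contains, was found in Dnaja4, Dnajb6 and Dnajc27 (4 of 43 promoters, 6.69% of all). The other 2-unit form, TTCNNGAA, also part of the 3-unit form, was found in Dnajb4, Dnajb6 and Dnajc10 (4 of 43, 7.17% of all). The E-box CACGTG, the palindromic site of CLOCK and its partner, was found in Dnajb9, Dnajc1 and Dnajc16 (3 of 43, 6.02% of all). The endoplasmic reticulum stress element, CCAAT and CCACG with 9 bases between them on either strand, was found in Dnajc3 (1 of 43, 0.113% of all). A match to letters is not a bound site, and no match says only that these letters are not in the window.

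The following 5 promoters are read 5′ to 3′ on the gene's own strand, with matches in capitals. Dnajc6, Dnajc16 and Dnajc10 are shown because, after Dnajb5, they had the smallest p-values in dark minus light, and Dnajb6 and Dnajc3 were added after the matches were seen. They lie at chr4:101507726-101507975 (plus strand, the first of its listed starts), chr4:141790645-141790894 (minus strand), chr2:80315216-80315465 (plus), chr5:29735648-29735897 (plus) and chr14:118937682-118937931 (plus) of GRCm38.p6. Dnajc6 holds none of the motifs, and the capitals mark the E-box in Dnajc16, TTCNNGAA in Dnajc10, the 3-unit heat shock element in Dnajb6 and the stress element in Dnajc3.
Dnajc6: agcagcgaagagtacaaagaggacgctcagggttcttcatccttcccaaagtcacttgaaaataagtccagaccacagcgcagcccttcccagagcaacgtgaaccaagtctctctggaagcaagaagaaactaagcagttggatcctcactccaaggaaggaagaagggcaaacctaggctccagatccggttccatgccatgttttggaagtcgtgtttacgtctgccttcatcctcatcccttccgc
Dnajc16: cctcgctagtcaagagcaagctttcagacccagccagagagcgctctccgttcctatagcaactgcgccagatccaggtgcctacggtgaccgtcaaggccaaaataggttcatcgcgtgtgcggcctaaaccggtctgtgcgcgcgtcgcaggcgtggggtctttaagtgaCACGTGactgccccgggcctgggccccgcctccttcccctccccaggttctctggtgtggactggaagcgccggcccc
Dnajc10: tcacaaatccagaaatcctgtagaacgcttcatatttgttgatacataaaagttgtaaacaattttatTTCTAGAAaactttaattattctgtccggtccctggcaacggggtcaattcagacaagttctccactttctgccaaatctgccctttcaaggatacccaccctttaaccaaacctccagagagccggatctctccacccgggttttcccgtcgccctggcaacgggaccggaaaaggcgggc
Dnajb6: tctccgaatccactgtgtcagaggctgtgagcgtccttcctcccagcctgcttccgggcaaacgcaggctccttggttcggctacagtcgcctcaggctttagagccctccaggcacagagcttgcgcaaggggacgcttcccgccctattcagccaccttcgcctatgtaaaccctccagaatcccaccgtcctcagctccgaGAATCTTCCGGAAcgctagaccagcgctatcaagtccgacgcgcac
Dnajc3: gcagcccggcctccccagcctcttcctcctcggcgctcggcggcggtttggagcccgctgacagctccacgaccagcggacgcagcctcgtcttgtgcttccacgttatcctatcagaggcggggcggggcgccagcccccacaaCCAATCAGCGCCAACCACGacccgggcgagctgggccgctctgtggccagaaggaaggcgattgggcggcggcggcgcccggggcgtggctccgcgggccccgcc

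Of the 12 genes assigned to the endoplasmic reticulum and linked membranes, 8 had fitted values above 0 in dark minus light and 4 below, with a median of 0.026. Over all genes 52.6% had a fitted difference above 0, and the median was 0.0022. Dnajc10, also known as ERdj5, reduces disulfide bonds of misfolded proteins in the reticulum. It had log2 values of 0.096, 0.15, 0.19 and 0.30 at ZT03, 0.11, 0.23, 0.17 and -0.068 at ZT07 and -0.19, -0.0079, -0.032 and 0.066 at ZT11. In the dark phase they were 0.17, 0.11, -0.25 and -0.015 at ZT15, -0.048, 0.077, -0.030 and 0.0079 at ZT19 and -0.045, -0.18, -0.14 and -0.21 at ZT23. All 4 hearts at ZT23 lay below all 4 at ZT03, and 10 of 12 dark-phase hearts lay below the light-phase median. The mean of Dnajc10 was -0.046 ± 0.13 in the dark phase and 0.085 ± 0.14 in the light phase (SD, n = 12 each), a difference of -0.13 ± 0.045 (SE, 95% interval -0.22 to -0.038). The adjusted p with limma was 0.261 for this difference and 0.153 over time points.

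Dnajc16, a membrane protein of the reticulum, had log2 values of -0.043, -0.021, 0.0071 and 0.21 at ZT03, -0.0014, 0.042, 0.12 and 0.17 at ZT07 and -0.072, 0.099, 0.072 and 0.11 at ZT11. Dark-phase hearts had 0.020, -0.090, -0.13 and -0.17 at ZT15, -0.0072, -0.25, -0.013 and 0.021 at ZT19 and 0.055, 0.0014, -0.16 and -0.18 at ZT23. All 12 dark-phase hearts lay below the light-phase median, and the ranges of the phases overlapped. The mean of Dnajc16 was -0.075 ± 0.10 in the dark phase and 0.057 ± 0.086 in the light phase (SD, n = 12 each), a difference of -0.13 ± 0.040 (SE, 95% interval -0.22 to -0.048, adjusted p with limma 0.181). Its 24 h amplitude was 0.090 ± 0.027 (SE) with a peak at ZT6.88 (adjusted p with limma 0.308).

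Dnajb9, or ERdj4, which is induced when unfolded proteins pile up in the reticulum and feeds them to the HSP70 of that compartment, had -0.20, -0.34, -0.25 and -0.22 at ZT11. Those 4 hearts lay together, with a mean of -0.25 ± 0.062 (SD, n = 4), while hearts at the neighbouring time points spread from -0.098 to 0.24 at ZT07 and from -0.30 to 0.30 at ZT15. Dnajb9 had the largest SD within time points of the family (0.19) and an adjusted p over time points of 0.557 with limma. Its dark-minus-light difference was 0.0026 ± 0.074 (SE), the smallest in size of this group, with a 95% interval of -0.15 to 0.16. Dnajc3, an inhibitor of the kinase PERK and a co-chaperone in the lumen, had -0.46, 0.052, -0.34 and 0.021 at ZT11. Replicates 1 and 3 were low and the others near 0. Dnajb11, which holds nascent chains in the lumen, had a dark-minus-light difference of 0.097 ± 0.045 (SE, adjusted p with limma 0.448). For Dnajb11 11 of 12 dark-phase hearts lay above the light-phase median, and ZT11 replicate 1, at -0.29, lay below all other hearts. Hspa5, the HSP70 of the reticulum that these proteins serve, was at -0.095, 0.035, -0.15 and -0.13 at ZT11 (dark minus light 0.066 ± 0.064, adjusted p 0.782).

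Dnajb12 and Dnajb14, which help to degrade misfolded membrane proteins, had dark-minus-light differences of -0.0086 ± 0.038 and 0.037 ± 0.022 (SE). Dnajc1, which binds ribosomes at the membrane, was at 0.067 ± 0.048 and Dnajc18 at 0.099 ± 0.058. Dnajc14 had 0.035 ± 0.072, Dnajc22 -0.0040 ± 0.032 and Dnajc25 0.017 ± 0.040, and the intervals of all 7 included 0. The difference of Dnajc14 turned to -0.0175 without ZT11 replicate 1, which lay at -0.61 for this gene. Dnajc25 was also among the genes with an unadjusted p under 0.05 over time points (adjusted p with limma 0.223), with a highest mean of 0.15 at ZT07 and a lowest of -0.072 at ZT03.

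Of the 6 mitochondrial members, Dnajc11, a protein of the cristae-organising machinery, had the largest dark-minus-light value, 0.15 ± 0.058 (SE, 95% interval 0.032 to 0.28, adjusted p with limma 0.326). Its hearts were 0.40, 0.17, 0.090 and -0.13 at ZT23, against -0.11, -0.087, -0.46 and 0.078 at ZT03, with overlap. Dnajc4 lay the other way at -0.12 ± 0.051 (adjusted p 0.411), with 10 of 12 dark-phase hearts below the light-phase median. Dnajc15, a protein of the inner membrane that restrains complex I, had 0.088, 0.041, 0.080 and 0.075 at ZT15, against -0.0070, -0.18, -0.28 and -0.34 at ZT03. The ZT15 hearts lay close together and above all ZT03 hearts, and ZT15 minus ZT03 was 0.27 ± 0.11 (SE, adjusted p with limma 0.285).

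Dnajc28, a mitochondrial member of little known function, had log2 values of 0.059, 0.044, 0.046 and 0.065 at ZT03, -0.14, 0.045, 0.030 and 0.092 at ZT07 and -0.20, -0.20, -0.078 and 0.0003 at ZT11. Dark-phase hearts had -0.13, -0.10, -0.17 and 0.056 at ZT15, -0.0003, -0.0034, -0.0020 and 0.0065 at ZT19 and -0.11, 0.19, 0.10 and -0.12 at ZT23. The ZT19 hearts lay almost on the median of the gene, and the lowest mean was that of ZT11, where 3 of 4 hearts lay below 0, as at ZT15. Its 24 h amplitude was 0.080 ± 0.025 (SE) with a peak at ZT1.14 (adjusted p with limma 0.337), while its dark-minus-light difference was -0.0036 ± 0.037 (SE), the smallest in size of the mitochondrial group. Dnajc30, a mitochondrial protein that acts on complex I, had a dark-minus-light difference of 0.027 ± 0.046 (SE). Dnaja3, a class A protein of the matrix, was measured by 3 features whose dark-minus-light differences were -0.027, 0.019 and 0.042. Dnajb14, of the reticulum, was measured by 2 features, at 0.081 and -0.0062, so the features of both genes differed in sign, none of them with an unadjusted p under 0.05 with limma.

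The 5 members that work in the nucleus or with ribosomes and translation factors all had their lowest mean at ZT11, as did 18.1% of all genes. Other means lay closer to it than the SD between hearts, among them ZT03 for Dnajc2 (-0.10) and Dnajc8 (-0.069), and ZT19 and ZT23 for Dnajc24 (-0.068 and -0.068). Dnajc9, a chaperone of histones H3 and H4, had the largest dark-minus-light value among them, with log2 values of -0.24, 0.22, -0.098 and -0.23 at ZT03, -0.14, 0.066, 0.11 and 0.0035 at ZT07 and -0.30, -0.048, -0.17 and -0.11 at ZT11. In the dark phase Dnajc9 had 0.28, -0.099, -0.084 and 0.079 at ZT15, 0.061, 0.0064, 0.12 and 0.10 at ZT19 and -0.0035, 0.10, -0.0084 and 0.20 at ZT23. All 12 dark-phase hearts lay above the light-phase median, although the ranges overlapped. The mean of Dnajc9 was 0.063 ± 0.11 in the dark phase and -0.078 ± 0.15 in the light phase (SD, n = 12 each), a difference of 0.14 ± 0.053 (SE, 95% interval 0.030 to 0.25, adjusted p with limma 0.323). Means at ZT11 were -0.11 ± 0.17 for Dnajc2, which sits at the ribosome exit, -0.14 ± 0.15 for Dnajc21, which helps make ribosomes, -0.071 ± 0.089 for the spliceosome protein Dnajc8 and -0.080 ± 0.099 for Dnajc24, which acts in diphthamide synthesis (SD, n = 4 each). In dark minus light Dnajc2 was at 0.073 ± 0.055, Dnajc21 at 0.066 ± 0.053, Dnajc8 at 0.092 ± 0.047 and Dnajc24, the smallest in size, at -0.0037 ± 0.041 (SE).

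In the whole family 17 of 39 genes (43.6%) had their lowest mean at ZT11, where 18.1% of all genes did. The count was 12 (all genes 18.4%) without ZT11 replicate 1, the heart that held 9 of the family's values below all others, and the 5 nuclear and ribosomal genes were among these 12. The median of the 39 ZT11 means was -0.029, and -0.011 without that heart. At ZT19 1 gene had its lowest mean (13.6% of all genes). The highest mean fell at ZT11 for 4 genes (18.5% of all genes), and for 8 genes each at ZT03 (17.3%), ZT19 (15.9%) and ZT23 (16.3%). These are counts without a test. Of the 17 genes 2, Dnaja2 and Dnajb4, had an unadjusted p under 0.05 over time points with limma, against 13.4% of all genes.

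**Figure D3:**
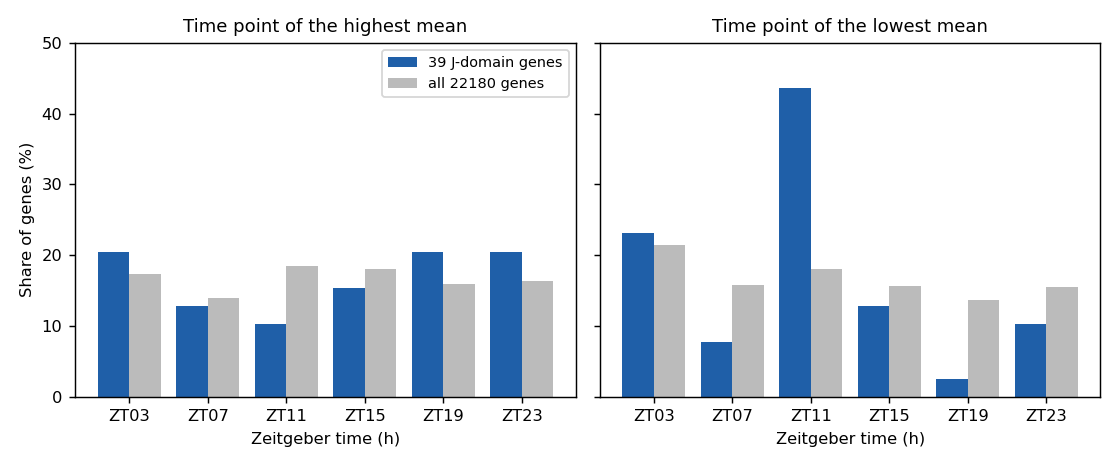
Share of genes (%) whose highest (left) or lowest (right) time-point mean fell at each zeitgeber time, for the 39 J-domain genes (blue) and all 22180 genes (grey). The blue bar for the lowest mean at ZT11 stands at 43.6%, and the grey bar beside it at 18.1%.

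Among the 4 genes of vesicle traffic, Dnajc5, the cysteine string protein that keeps SNARE proteins folded, had log2 values of -0.32, -0.19, -0.29 and -0.063 at ZT03, 0.047, -0.013, -0.10 and 0.0099 at ZT07 and 0.086, 0.15, 0.0019 and 0.32 at ZT11. Dark-phase hearts had -0.034, -0.0019, -0.060 and 0.14 at ZT15, -0.24, 0.052, -0.021 and 0.041 at ZT19 and 0.13, 0.020, -0.15 and 0.037 at ZT23. All ZT11 hearts lay above all ZT03 hearts, within the same phase, and the dark-minus-light difference was 0.023 ± 0.044 (SE), the smallest in size of this group. The mean was 0.14 ± 0.13 at ZT11 and -0.22 ± 0.12 at ZT03 (SD, n = 4 each), and the adjusted p over time points with limma was 0.149. ZT15 minus ZT03 was 0.23 ± 0.076 (SE, adjusted p 0.161).

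Dnajc6, or auxilin, which recruits HSP70 to strip clathrin from vesicles, had log2 values of -0.13, -0.012, -0.0087 and -0.043 at ZT03, -0.0040, -0.11, -0.11 and -0.070 at ZT07 and 0.084, -0.058, 0.076 and -0.049 at ZT11. In the dark phase they were 0.038, 0.032, 0.0095 and -0.033 at ZT15, 0.10, 0.10, 0.0040 and -0.099 at ZT19 and 0.040, 0.17, 0.088 and 0.24 at ZT23. The mean was highest at ZT23, and 11 of 12 dark-phase hearts lay above the light-phase median. The mean of Dnajc6 was 0.058 ± 0.091 in the dark phase and -0.035 ± 0.067 in the light phase (SD, n = 12 each), a difference of 0.094 ± 0.028 (SE, 95% interval 0.035 to 0.15, adjusted p with limma 0.181). Dnajc27, a small GTPase fused to a J domain, had the largest dark-minus-light value of the group (0.094 ± 0.051) and an interval of -0.013 to 0.20. Dnajc13, which works on endosomes, had -0.11, -0.029, -0.21 and -0.012 at ZT15, against -0.012, 0.11, 0.085 and 0.29 at ZT03. The highest heart at ZT15 and the lowest at ZT03 lay side by side just below 0, and the difference was -0.21 ± 0.074 (SE, adjusted p with limma 0.193).

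The 3 remaining genes had differences of -0.088 ± 0.045 for Dnajc12, a co-chaperone of aromatic amino acid hydroxylases, -0.026 ± 0.033 for Dnajb13, a protein of cilia and sperm tails, and 0.021 ± 0.035 for Dnajc7, which links HSP70 and HSP90. Over all 39 genes 25 (64.1%) had a fitted dark-minus-light difference above 0, where 52.6% of all genes did, and the median was 0.023 against 0.0022. For ZT15 minus ZT03 the fitted difference was above 0 for 22 of 39 (56.4%, all genes 53.4%). Fitted 24 h peaks fell between ZT18 and ZT24 for 17 of 39 genes (43.6%), where 22.7% of all genes did. They fell between ZT0 and ZT6 for 8 (26.1% of all genes), between ZT6 and ZT12 for 7 (20.4%) and between ZT12 and ZT18 for 7 genes (30.8%). Most of the 17 genes with a peak between ZT18 and ZT24 also had their lowest mean at ZT11. Peaks were not counted again without ZT11 replicate 1. The median amplitude was 0.050, and 5 of the 39 fits had the unadjusted p under 0.05 given above. Of these 5 genes only Dnajc6 had its peak between ZT18 and ZT24. The error of the peak time differed widely among the 17 genes, from 1.35 h (SE) for Dnajc6 to 8.0 h for Dnaja3. The count of peaks is therefore no result about a phase of the family.

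**Figure D4:**
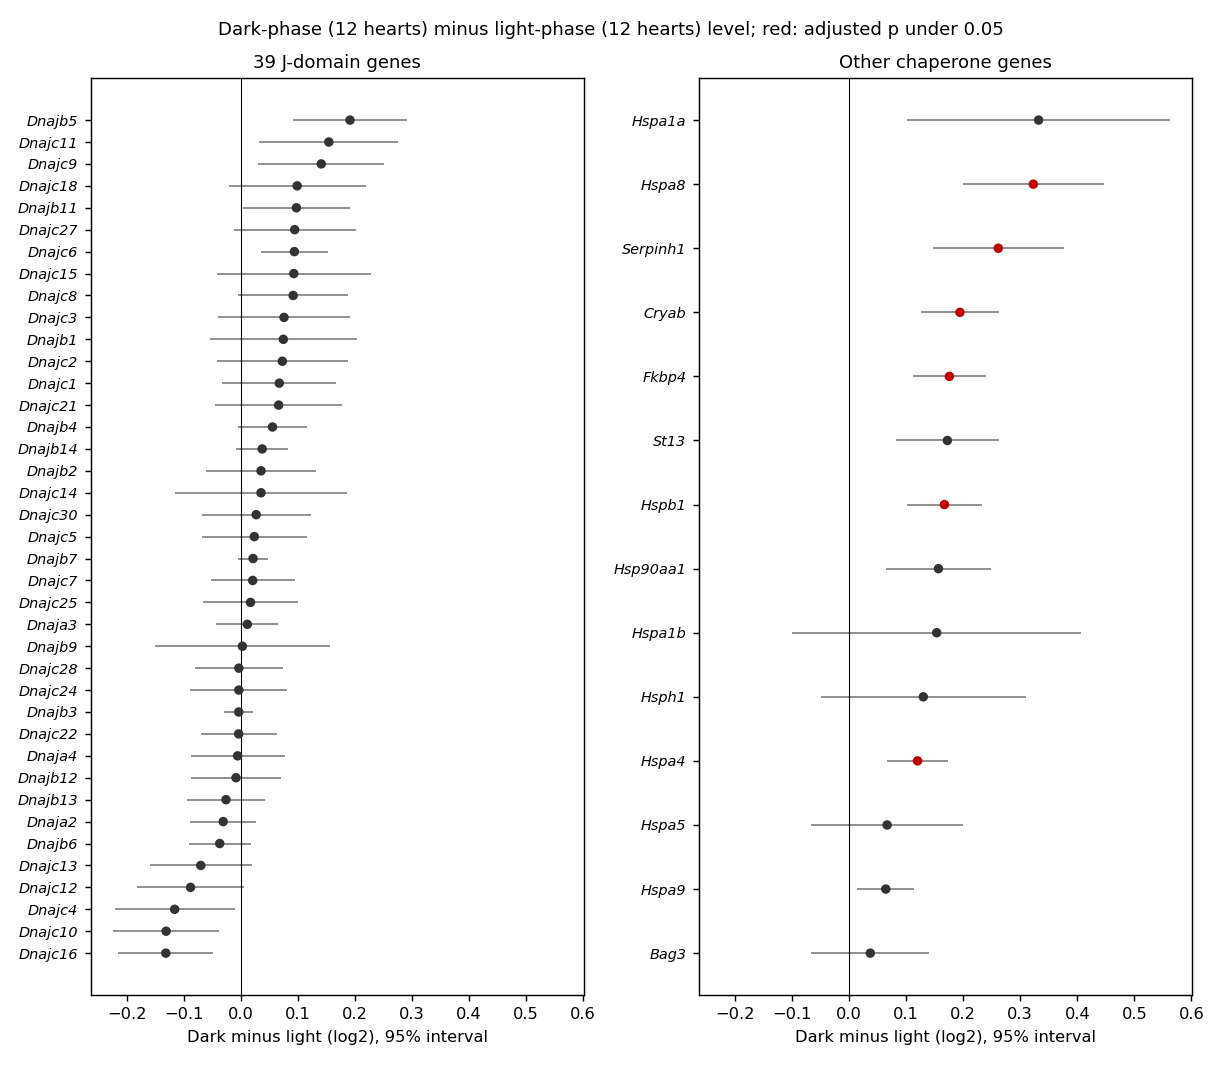
Dark-phase minus light-phase difference on the log2 scale (horizontal axis, points) with its 95% interval (lines), 12 hearts per phase, for the 39 J-domain genes (left) and for other chaperone genes (right). None of the points on the left is red, the colour of an adjusted p under 0.05, while Hspa8, Serpinh1, Cryab, Fkbp4, Hspb1 and Hspa4 are.

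Other genes of the chaperone system passed in these hearts. The lists counted here and below were chosen with earlier results of these data known. Their counts beside the shares over all genes are therefore descriptive and no test of a list. Of 15 measured HSP70 genes, 2 were higher in the dark phase with limma and 0 lower (background 0.135% higher and 0.243% lower). Hspa8, the constitutive HSP70 that cytosolic J-domain proteins serve, averaged 0.16 ± 0.18 in the dark phase and -0.17 ± 0.23 in the light phase (SD, n = 12 each), a difference of 0.32 ± 0.060 (SE, adjusted p with limma 0.0184), and 12 of 12 dark-phase hearts lay above the light-phase median. Hspa4, which recycles HSP70 by nucleotide exchange, was higher by 0.12 ± 0.025 (SE, adjusted p with limma 0.0377), also in 12 of 12 hearts. The stress-inducible genes Hspa1a and Hspa1b were at 0.33 ± 0.11 and 0.15 ± 0.12 and did not pass, nor did Hspa9 of the mitochondrion (0.064 ± 0.024). Whether Dnajb5, at 0.19 ± 0.048, differed less than Hspa8 was not tested.

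Of 10 measured genes of the HSP90 system, Fkbp4 was higher in the dark phase (0.18 ± 0.031, adjusted p with limma 0.0164), while Hsp90aa1 (0.16 ± 0.045, adjusted p 0.137) and Chordc1 (0.19, adjusted p 0.36) did not pass. Of 9 small heat shock and related genes 3 were higher in the dark phase, the small heat shock genes Cryab (0.19 ± 0.033) and Hspb1 (0.17 ± 0.031) and the collagen chaperone Serpinh1 (0.26 ± 0.055), with adjusted p of 0.0154, 0.0185 and 0.0364 in that order with limma. None of the 9 passed as lower, and the list's median difference was 0.0027. Hspd1, also on this list, was at 0.15 and did not pass (adjusted p with limma 0.0592). Hspb7 (-0.13, adjusted p 0.426) and Hsf2 (-0.097, adjusted p 0.469) lay the other way. Hspd1, Hspb7 and Hsf2 were named after their values were seen. Of 11 exchange factors and co-chaperones 0 passed with limma in any of the 4 tests. In dark minus light 1 had an unadjusted p under 0.05 with limma, against 10.5% of all genes. That gene was St13, which binds HSP70, at 0.17 ± 0.043 (adjusted p 0.0929). Bag2 (0.072) and Stip1 (0.093) followed it, and Bag3 was at 0.037 ± 0.050. Of the 3 measured J-domain genes with other names, Sec63 (0.038), Hscb (-0.056) and Gak (-0.094), 0 passed with limma, and in that contrast 0 reached an unadjusted p under 0.05. Among 13 clock genes Nfil3 was higher in the dark phase (0.24, adjusted p with limma 0.022), and Per1 (-0.40) and Npas2 (-0.17) did not pass.

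**Figure D5:**
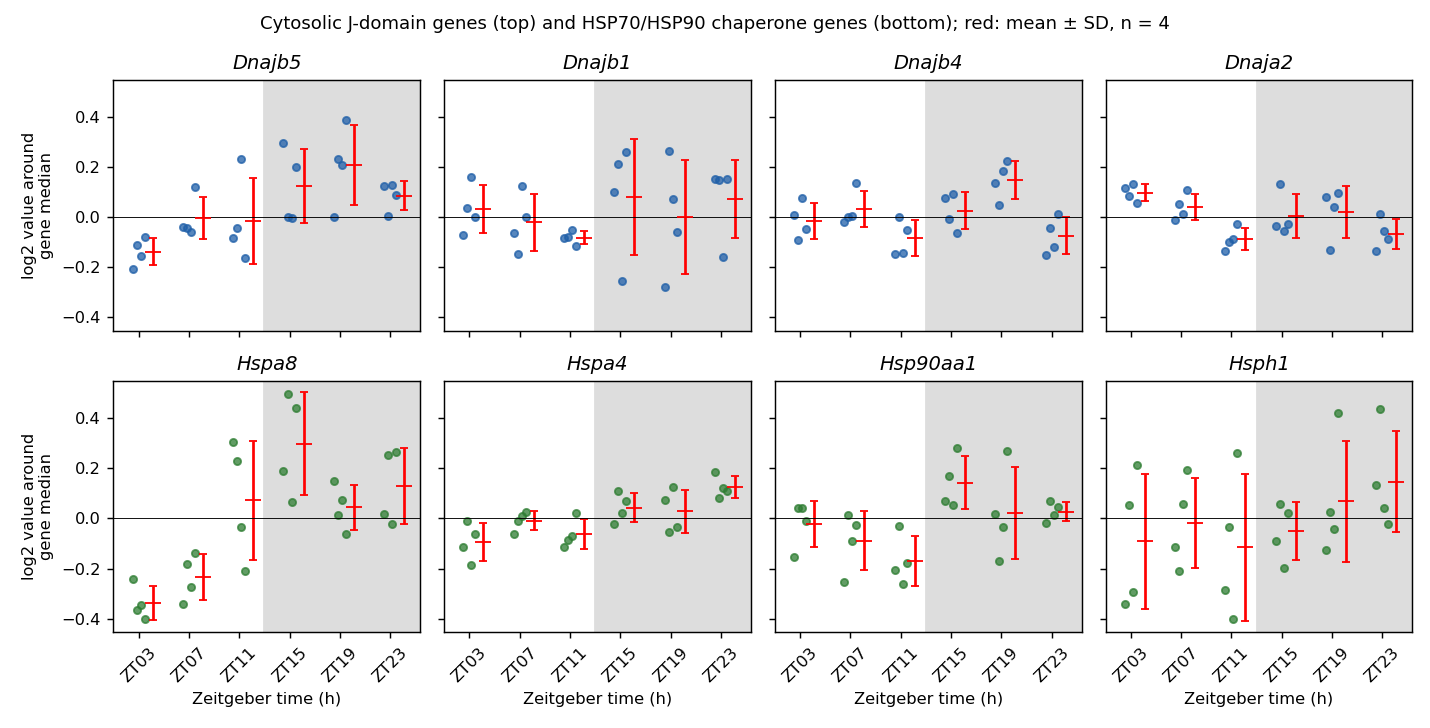
Log2 value around the gene median (vertical axis) in each of 24 hearts (dots) at 6 zeitgeber times (horizontal axis) for 4 cytosolic J-domain genes (top) and 4 HSP70 and HSP90 chaperone genes (bottom), with mean and SD of 4 hearts in red and the dark phase in grey. Hspa8 lies at 0.30 ± 0.20 at ZT15 and -0.34 ± 0.068 at ZT03, while Dnajb1 lies at 0.079 ± 0.23 at ZT15 and 0.031 ± 0.096 at ZT03 (SD, n = 4 each).

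Across the 24 hearts Dnajb1 was compared with 3 chaperone partners, and 0 of the 3 relations passed. Pearson's r with Hspa8 was 0.245 (permutation p 0.246) and Spearman's rho 0.177 (permutation p 0.408), in two-sided permutation tests. With Hsp90aa1 r was 0.25 (permutation p 0.24) and rho 0.268 (permutation p 0.206). With Hsph1, an HSP70 exchange factor induced by heat, r was 0.248 (permutation p 0.244) and rho 0.285 (permutation p 0.176). Adjusted over the 3 relations the permutation p was 0.246 for each r, and 0.408, 0.308 and 0.308 for the rho values. Without the pair of hearts farthest from the partner's median, r was -0.0063 with Hspa8, 0.188 with Hsp90aa1 and 0.269 with Hsph1. For deviations from the time-point means, r was 0.308, 0.0183 and 0.207 in the same order.

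Markers of other cell types were read beside these results. In dark minus light 0 marker passed with limma. An unadjusted p under 0.05 with limma was found for 2 of 5 fibroblast, 2 of 4 macrophage and 1 of 4 skeletal muscle markers, against 10.5% of all genes. The fibroblast markers had a median difference of -0.1178, with Dcn at -0.12 (adjusted p 0.269), Col1a1 at -0.177 (adjusted p 0.354) and Lum at -0.118 (adjusted p 0.504). The remaining fibroblast markers, Col1a2 and Pdgfra, were at -0.0086 and -0.0002 and were named after their values were seen. The mean of the 5 fibroblast markers ranged over hearts from -0.195 to 0.107 in the dark phase and from -0.094 to 0.199 in the light phase. The macrophage markers went opposite ways, Cd163 at 0.147 and Csf1r at -0.167. The cardiomyocyte, endothelial, smooth muscle and adipocyte lists held 0 genes with an unadjusted p under 0.05 in that contrast. In ZT15 minus ZT03, Dcn was lower (-0.30, adjusted p with limma 0.047). The other fibroblast markers did not pass, with Col1a1 (-0.12), Lum (-0.25) and Pdgfra (-0.17) on the same side and Col1a2 (0.075) on the other. Ckm, the muscle creatine kinase, was higher (0.36, adjusted p 0.0389) and also passed over time points (adjusted p 0.0182). Although it was listed for skeletal muscle, heart muscle expresses Ckm strongly too, and Ckm was the skeletal muscle marker in the upper signal class. The skeletal muscle markers together ranged from -0.185 to 0.22 in the dark phase and from -0.308 to 0.133 in the light phase. Erythroid markers were not analysed here. The part of the cell mix in the values above was not tested.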

How the data were processed

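Gene expression was measured in 24 hearts with 1-colour Affymetrix arrays, from 500 ng of total RNA each, per the labels' protocols. The deposited table holds values taken as log2 for 34351 features, each centred by the authors, or by their software, on its median over the 24 arrays (largest absolute median 5e-07). Background correction, summarization, normalization and the base of the log are not given in the sources used here. Log2 was taken as the base, and a natural log was not excluded by the values. Signal over background is unknown, so no filter on low values was applied and all 39 genes were tested.

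Features were named through the platform's probe annotation. Of the features 23521 had 1 symbol, 1814 several and 9016 none, and features of 1 gene were averaged (1082 genes), which left 22180 genes. All 39 symbols matched the RefSeq gene table of GRCm38.p6. Groups came from the sample labels, which call the 4 hearts of a time point biological replicates. The deposited table held 0 unused columns.

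Models were fitted with limma 3.58.1 in R 4.3.3 to all genes: an F test over 6 time points, a cosine of 24 h, dark phase minus light phase over the means of 3 time points each, and ZT15 minus ZT03. P-values were adjusted by Benjamini-Hochberg over 22180 genes at 0.05. Correlations used 100000 permutations (Python 3.11.15, numpy 2.4.6, scipy 1.17.1). Correlations of Dnaja1 were not run, since its feature carries several symbols. The fits were tested on simulated data. Array number limits the precision.

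Members and gene lists were chosen with earlier results of these data known. Full values are given for genes past the threshold and for the 5 smallest p-values in each of the time-point, 24 h and phase tests. In each role group the genes with the largest and smallest absolute dark-minus-light difference were named. In other lists those that passed, the 3 smallest p-values in dark minus light and 8 preset chaperone genes were named, and any J-domain gene could be named. Promoters were shown for the 4 smallest p-values in dark minus light, with 2 added later. They are the 250 bases before the start in RefSeq's GRCm38.p6 annotation. Alternatives were a replicate block, quantile normalization, array weights, robust eBayes, single features, a filter on variation, and hearts left out.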

Additional observations from a re-analysis of the deposited data

Results flagged for a closer look

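Of 48 groups of 4 hearts examined for the 8 genes given in full, 3 held 1 heart whose gap to the nearest other heart exceeded Dixon's 95% critical share of the group's range. Chance alone gives about 1 such group in 20. Dnajb4 was at 0.14 in ZT07 replicate 4, and the other hearts of ZT07 lay between -0.02 and 0.01. Dnajb5 was at 0.12 in the same heart, and the others lay between -0.06 and -0.04. Dnajc16 was at -0.25 in ZT19 replicate 2, while the others of ZT19 lay between -0.01 and 0.02.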

How the results depend on the processing

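The count of J-domain genes past the threshold in dark minus light was 1 in place of 0 when the less variable genes were left out (Dnajb5, 0.191, adjusted p with limma 0.0446, 30 of the 39 genes tested). It ranged from 0 to 1 with single hearts left out, and was 1 without ZT11 replicate 3 or ZT19 replicate 1. The smallest adjusted p in that contrast ranged from 0.0266 to 0.157 over the alternatives. In the other 3 tests it was 0 under every alternative run. The count with the lowest mean at ZT11, 17, ranged from 12 (without ZT11 replicate 1) to 19 with single hearts left out, was 13 after quantile normalization and 11 without ZT11 replicate 1 and ZT19 replicate 2. The share of all genes, 18.1%, was 18.4%, 15% and 17.9% without ZT11 replicate 1, after quantile normalization and without both hearts, and 22.3% without ZT11 replicate 4. These last alternatives were chosen after seeing the data. Array weights were lowest for ZT11 replicate 1 (0.542), ZT19 replicate 1 (0.643) and ZT23 replicate 4 (0.653), while ZT19 replicate 2 had 0.961. Dnajc28, at -0.0036 in dark minus light, turned to 0.000127 after quantile normalization and 0.00232 with array weights, and ranged from -0.0225 to 0.0112 with single hearts left out. Its difference is far smaller than its error. Of 1024 values of the 8 genes given in full, 1011 kept their side of the threshold and, where they had one, their direction. Values of the time-point test and the 24 h amplitude have no direction that could turn. Many adjusted p-values with limma lay far above the threshold in the main fit, so this count says little about how stable the values are. Among all 39 genes, 8 turned sign in dark minus light under quantile normalization, array weights, without ZT11 replicate 1 or without both hearts: Dnajc28, Dnaja3, Dnaja4, Dnajb9, Dnajc7, Dnajc14, Dnajc22 and Dnajc24, the largest from 0.0352 (Dnajc14). Counts over all genes moved more. Time points called 329, 218 with the replicate block and 504 with the less variable genes left out. The 24 h cosine called 14, 33 after quantile normalization, 59 with array weights, 65 without the less variable genes and 3 with features fitted singly. Dark minus light called 84, 144 after quantile normalization, 155 without the less variable genes and 131 without both hearts. ZT15 minus ZT03 called 239, 430 with array weights, 366 without the less variable genes and 365 without both hearts. With single hearts left out these counts ranged from 28 to 467, 3 to 45, 51 to 183 and 25 to 326. With the replicate block 0 J-domain genes passed in each test, and it changed no call of a J-domain gene. Deviations of same-numbered hearts from their time-point means correlated at -0.23 to 0.23 (60 pairs, 8 over 0.1). Those of differently numbered hearts correlated at -0.24 to 0.25 (180 pairs, 18 over 0.1), so the numbers showed no clear pairing. Without levels, a low or absent transcript could not be told from a steady one.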
